A study of Mus musculus with 48 samples.

Results

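The genes described here are 36 listed genes of the integrated stress response and of the amino acid, serine and folate pathways that its transcription factor ATF4 is known to drive. They were taken by symbol, and 34 of the 36 had a probe set among the 19505 genes measured (Mars under its present symbol Mars1), while Pycr1 and Aars had none that was used. The mouse arrays held RNA of 48 cultures in 16 groups of 3. Kupffer cells, which are macrophages resident in liver, came from male BALB/c mice by magnetic sorting on F4/80. Monocytic macrophages were grown from CD115-sorted blood monocytes, taken from those animals too. All cells first spent 1 day with MCSF, macrophage colony-stimulating factor. They were then kept for 1 or 3 days with HGF, with Ito cells (the stellate cells of the liver), with CD146 cells (sinusoidal endothelial cells), or further in MCSF as the control. The controls thus had 2 or 4 days of MCSF in all. The sources used here give neither the age of the mice nor whether MCSF was kept on during an addition, and not whether added cells were held apart from the macrophages. The replicates were labelled as biological, but which animals they came from is not given, so p-values measure the spread between these cultures.

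As background, cells that lack amino acids or that are stressed phosphorylate the initiation factor eIF2, which slows protein synthesis in general but raises translation of Atf4. ATF4 then drives genes that make serine, asparagine and proline, import amino acids and charge tRNAs, and genes that feed back on the response, such as Ddit3 (CHOP) and Trib3. Serine feeds the folate cycle, which supplies one-carbon units for purine and thymidylate synthesis, so the same enzymes also serve dividing cells. Since ATF4 is controlled at translation, the level of its mRNA is only a partial measure of its activity.

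ATF4 binds, with C/EBP partners, a composite element whose core is TGATGNAA. The 300 bases from 250 before to 50 after the start of a gene were searched on both strands (TTNCATCA on the other strand) in the RefSeq promoters of GRCm38.p6. Of the 34 genes, 26 had a promoter in that table, and 6 of these (23.1%) held the core, against 1219 of 27025 genes of the table (4.51%). This count is a description of letters, not of binding. The stretches before the start of 5 of them are shown because these genes bear the results below or are classical members of the response, with the core in capitals, 5′ to 3′ on the gene's strand, on GRCm38.p6. The match in Trib3 lay after its start.
Asns (chr6:7693210-7693282, reverse strand): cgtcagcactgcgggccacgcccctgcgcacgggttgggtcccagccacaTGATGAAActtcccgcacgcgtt
Chac1 (chr2:119350999-119351106, forward strand): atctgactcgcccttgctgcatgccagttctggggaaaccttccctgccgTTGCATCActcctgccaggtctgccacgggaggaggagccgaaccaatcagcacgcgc
Gars (chr6:55037921-55038000, forward strand): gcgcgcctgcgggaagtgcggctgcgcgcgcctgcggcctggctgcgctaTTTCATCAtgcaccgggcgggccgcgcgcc
Nupr1 (chr7:126625523-126625630, reverse strand): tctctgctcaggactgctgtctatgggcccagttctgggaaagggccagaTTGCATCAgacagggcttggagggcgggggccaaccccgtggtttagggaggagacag
Vldlr (chr19:27216770-27216877, forward strand): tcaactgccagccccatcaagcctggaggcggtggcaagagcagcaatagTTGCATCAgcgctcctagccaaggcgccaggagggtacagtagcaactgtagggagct
In Asns the core began 23 bases before the start and read on the gene's own strand, and in Gars it began 30 bases before the start on the other strand. The cores of Chac1, Nupr1 and Vldlr also read on the other strand.

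Signals are log2 values, a difference of 1 being a doubling, and each group had 3 arrays. The median of the negative control probe sets lay between 4.85 and 5.65 by group. The group means of Chac1, Sesn2, Ppp1r15a, Aldh1l2, Cth, Cbs and Slc7a3 were under it in all 16 groups, so differences in these 7 genes are not read as expression. Over the 34 genes the highest group mean exceeded the lowest by a median of 2.35, against 1.63 over all 19505 genes, and the range was over 4 for 7 of 34 (20.6%), against 7.04% of all genes. It was widest for Phgdh, from 2.91 in monocytic macrophages after 1 day with HGF to 9.87 in Kupffer cells after 3 days with HGF. The lower value, and Phgdh in 7 of the 16 groups, lay below the negative controls, so the size of its range is not read as expression. It was narrowest for the asparaginyl-tRNA synthetase Nars, at 0.89.

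**Figure D1:**
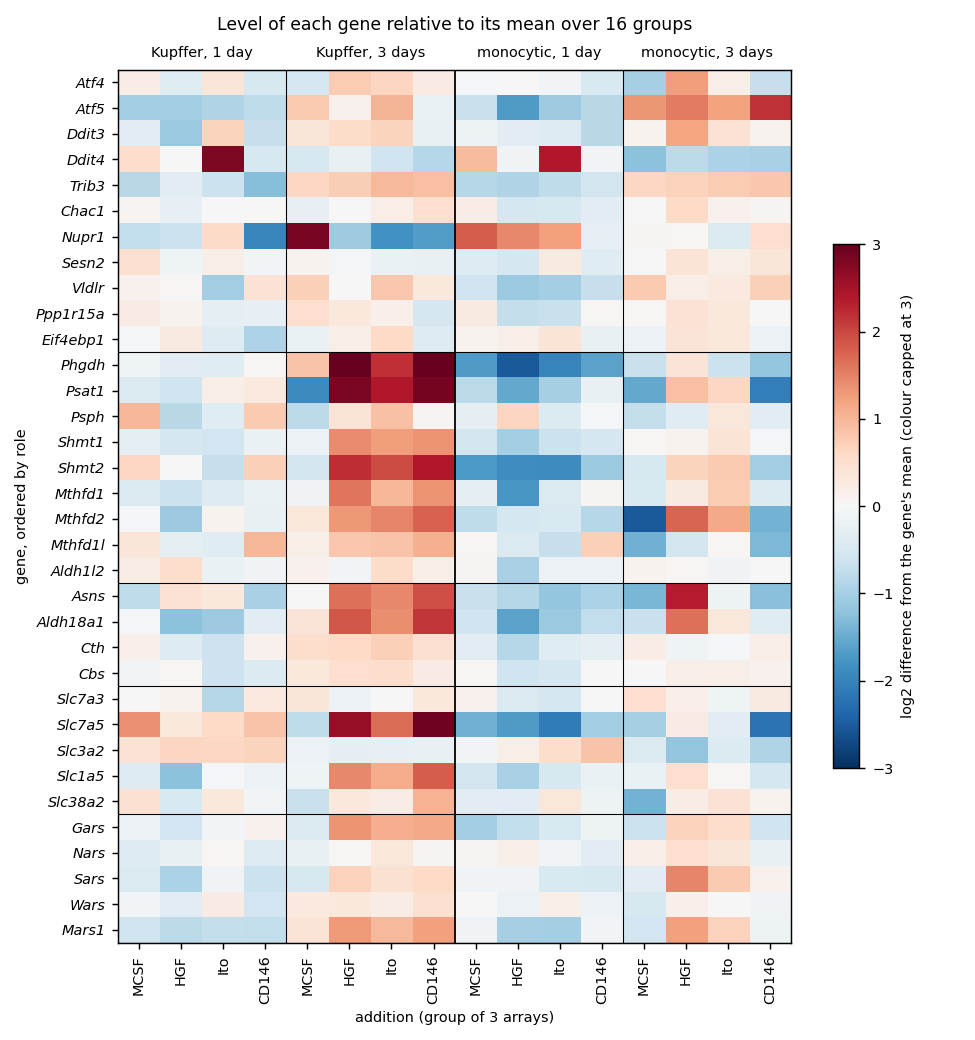
Mean log2 signal of 34 genes in 16 groups of 3 arrays, shown as the difference from the gene's mean over the groups (red higher, blue lower, colour capped at 3) and ordered by role. Psat1, Phgdh, Shmt2, Asns and Slc7a5 are red in the 3 Kupffer groups kept 3 days with an addition, while Nupr1 is red in the Kupffer control of that time.

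Of the 48 arrays, 3 are given special care below, the second Kupffer culture with HGF of 1 day, the first Kupffer control of 1 day and the third monocytic control of 3 days. Against the mean of the other 2 arrays of their group, their differences over all genes had an SD of 1.09, 0.989 and 0.699, ranks 1, 2 and 4 among arrays that went down to 0.280. The core macrophage markers were high throughout, 9 of 9 lying above the negative controls in every group. The 11 cell cycle genes of a list (Mki67, Ccna2, Top2a, Pcna and others) averaged 6.97 to 11.93 over the 3 monocytic controls of 3 days, the highest being the array that stood apart. In arrays of whole cultures, fewer cells of a type and less RNA per cell cannot be told apart.

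In Kupffer cells after 3 days, 15 to 19 of the 34 genes differed between an addition and the MCSF control. Among the enzymes of serine synthesis and of the folate cycle, Phgdh, Psat1, Shmt1, Shmt2 and Mthfd1 rose with each of the 3 additions. The other listed enzymes of these pathways rose with only some additions or with none. The large neutral amino acid transporter Slc7a5 and asparagine synthetase also rose with each addition, and the small stress protein gene Nupr1 fell. With HGF 13 of 34 rose, where 14.5% of all genes rose, and 2 fell, where 13.1% of all genes fell. With Ito cells 16 rose (all genes 14.5%) and 1 fell (all genes 12.3%), and with CD146 cells 16 rose (all genes 14%) and 3 fell (all genes 12.4%). The median difference of the 34 was 0.51, 0.63 and 0.76, against -0.00, 0.11 and 0.01 over all genes. These 3 comparisons share their 3 control arrays. With each array centred on its median, all genes split into 2349 risen and 3287 fallen with HGF and 2058 and 2988 with Ito cells, from 2824 and 2562 and from 2820 and 2399. Below, a difference in a comparison whose all-gene median moved by over 0.1 is given less that shift, as with Ito cells here, while its adjusted p is that of the difference before the shift.

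The serine branch starts with Phgdh, the first enzyme of serine synthesis from glycolysis. In Kupffer cells of 3 days its signals were 5.94, 6.23 and 6.65 in the control, 10.46, 9.15 and 10.02 with HGF, 7.90, 7.17 and 7.76 with Ito cells and 9.05, 8.46 and 8.26 with CD146 cells. No array of an addition reached down to the control, and the HGF arrays lay above those with Ito cells. The differences were 3.60 ± 0.33 (SE, adjusted p = 1.45e-11) with HGF, 1.22 ± 0.33 (SE, adjusted p = 0.00189) with Ito cells and 2.32 ± 0.33 (SE, adjusted p = 4.04e-07) with CD146 cells. Psat1, the aminotransferase of the second step, measured 7.84, 7.87 and 8.01 in the control, 12.65, 11.94 and 13.32 with HGF, 12.63, 11.89 and 12.14 with Ito cells and 12.82, 12.69 and 12.58 with CD146 cells. All 9 arrays with an addition were well clear of the 3 controls. It rose by 4.73 ± 0.40 (SE, adjusted p = 1.67e-12), 4.20 ± 0.40 (SE, adjusted p = 2.35e-11) and 4.79 ± 0.40 (SE, adjusted p = 1.06e-12), the largest rise of any member in each of the 3 comparisons. Psph, the phosphatase of the last step, rose with Ito cells, by 1.56 (adjusted p = 0.0273), a call lost under median centring and without Ito replicate 2 or 3 or control replicate 2 or 3. Its differences with HGF (1.20) and CD146 cells (0.88) did not pass, and whether the additions differ in Psph was not tested.

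The mitochondrial enzyme Shmt2, which splits serine to glycine and a folate one-carbon unit, had signals of 7.51, 7.99 and 7.83 in the Kupffer control of 3 days. They were 10.33, 10.36 and 10.94 with HGF, 10.73, 9.68 and 10.45 with Ito cells and 10.61, 10.91 and 10.64 with CD146 cells. Again the control arrays lay below all 9 others, and the differences were 2.77 ± 0.31 (SE, adjusted p = 1.36e-09), 2.40 ± 0.31 (SE, adjusted p = 1.61e-08) and 2.95 ± 0.31 (SE, adjusted p = 2.91e-10). Its cytosolic partner Shmt1 rose by 1.58, 1.32 and 1.51, from control arrays below the negative controls (4.83, 4.44 and 5.08). Mthfd1, the trifunctional cytosolic folate enzyme, rose by 1.71, 0.99 and 1.45. Mthfd2, the mitochondrial dehydrogenase of the folate cycle, already stood at 9.54, 9.83 and 10.40 in the Kupffer control. It rose by 1.45 with CD146 cells and 1.01 with Ito cells, and its difference of 0.98 with HGF did not pass (adjusted p = 0.0921). The Ito call was lost without any single Kupffer Ito array (replicate 1, 2 or 3) or without control replicate 1 or 2, and under median centring. The CD146 call was lost without control replicate 1 (adjusted p = 0.0512). Mthfd1l rose with CD146 cells, by 0.87, a call lost under median centring and without CD146 replicate 1 or 2 or control replicate 1. Of the 9 serine and folate genes, 5 rose with HGF, 7 with Ito cells and 7 with CD146 cells.

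Asns makes asparagine and carries the composite core shown above. Its Kupffer signals at 3 days were 10.35, 10.70 and 11.11 in the control, 12.60, 12.28 and 12.23 with HGF, 12.38, 11.97 and 12.14 with Ito cells and 12.49, 12.62 and 12.81 with CD146 cells. The groups did not overlap with the control, and the rises were 1.65 ± 0.31 (SE, adjusted p = 4.4e-05), 1.33 ± 0.31 (SE, adjusted p = 0.00034) and 1.92 ± 0.31 (SE, adjusted p = 3.77e-06). Aldh18a1, which starts proline synthesis, rose by 1.49, 0.89 and 1.76. Without the second HGF array its HGF difference was 2.16, and without the first the call was lost (adjusted p = 0.0501). With Ito cells its call was lost under median centring and without Ito replicate 1 or 3 or control replicate 1 or 2. Among transporters, Slc7a5 lay at 6.52, 7.29 and 7.19 in the control, 10.85, 9.72 and 10.57 with HGF, 9.75, 9.14 and 9.42 with Ito cells and 10.67, 10.90 and 10.46 with CD146 cells. The controls were the lowest of the 4 groups and the groups did not overlap with them. The rises were 3.38 ± 0.40 (SE, adjusted p = 6.95e-09), 2.33 ± 0.40 (SE, adjusted p = 6.05e-06) and 3.68 ± 0.40 (SE, adjusted p = 8.96e-10). Its partner chain Slc3a2, at 17.10, 16.78 and 16.23 in the same control, differed by -0.11, -0.18 and -0.04, none past the threshold. The glutamine carriers Slc1a5 (1.57, 1.11, 1.94) and Slc38a2 (0.99, 0.77, 1.71) rose with each addition. Each was lost without the first control array in the HGF and the Ito comparison, and Slc1a5 with Ito cells also under median centring and without Ito replicate 1 or 3 or control replicate 2. The call of Slc38a2 with HGF was lost, too, in a fit of the compared arrays alone. Of the tRNA synthetases, the glycyl enzyme Gars rose by 1.78, 1.41 and 1.57 and the seryl enzyme Sars by 1.17, 0.82 and 1.08, the Ito call of Sars being lost without Ito replicate 1. Nars, Wars and Mars1 did not pass in these comparisons, their differences lying between -0.18 and 0.87.

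The regulators behaved less uniformly. Atf4, at 13.19, 12.90 and 12.75 in the Kupffer control, measured 14.31, 14.34 and 14.03 with HGF, 14.23, 14.01 and 14.11 with Ito cells and 13.72, 13.51 and 13.94 with CD146 cells. All 9 lay above the 3 controls, with rises of 1.28 ± 0.25 (SE, adjusted p = 6.11e-05), 1.06 ± 0.25 (SE, adjusted p = 0.000246) and 0.78 ± 0.25 (SE, adjusted p = 0.0149), the last lost under median centring and without CD146 replicate 3 or control replicate 3. Ddit3, the proapoptotic factor CHOP, lay at 9.29, 8.83 and 8.83 in the control and differed by 0.19, 0.18 and -0.58, without passing. Trib3, a pseudokinase that restrains ATF4 and CHOP, differed by 0.12, 0.25 and 0.29, also without passing. Eif4ebp1, a repressor of cap-dependent translation, rose with Ito cells, by 0.66, a call lost under median centring and without Ito replicate 1 or 3 or control replicate 2 or 3. Atf5 fell by 0.97 with CD146 cells, a call lost without CD146 replicate 1 or control replicate 2. Nupr1, a small chromatin protein induced by stress, moved most among the regulators. Its Kupffer signals were 13.12, 12.99 and 13.15 in the control, 10.32, 8.46 and 8.76 with HGF, 7.99, 8.65 and 8.63 with Ito cells and 8.68, 8.77 and 8.24 with CD146 cells. Every array with an addition was below every control. The differences were -3.91 ± 0.50 (SE, adjusted p = 3.01e-08), -4.78 ± 0.50 (SE, adjusted p = 6.26e-10) and -4.52 ± 0.50 (SE, adjusted p = 1.02e-09). Of the other calls, Vldlr, a lipoprotein receptor, fell by 0.69 with HGF, a call lost in a fit of the compared arrays and without HGF replicate 1 or 2 or control replicate 2. Chac1 and Ppp1r15a passed with CD146 cells, both below the negative controls.

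**Figure D2:**
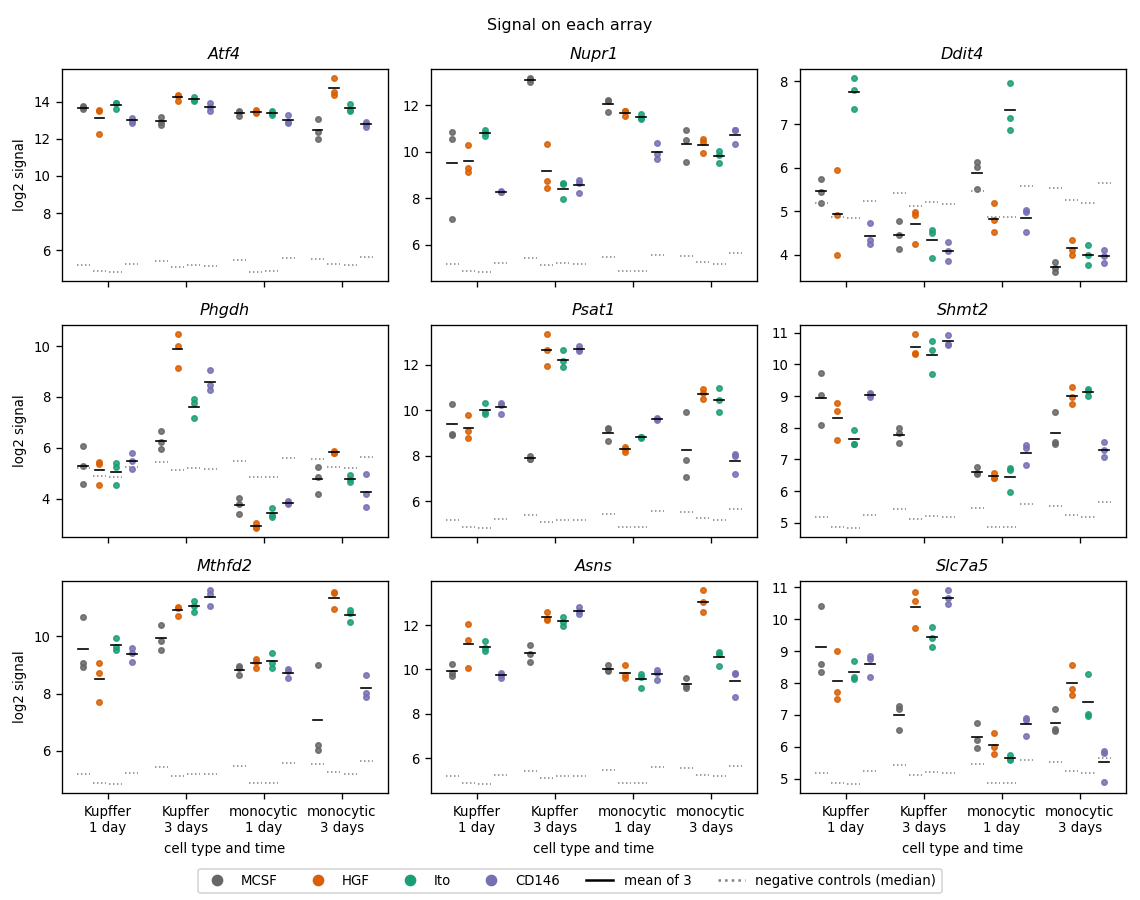
Log2 signal of 9 genes on each of the 48 arrays (points, coloured by addition), with the mean of each group of 3 (bars) and the group's median negative control (dotted). In Kupffer cells of 3 days the points with an addition lie above the MCSF points in Phgdh, Psat1, Shmt2, Mthfd2, Asns, Slc7a5 and Atf4 and below them in Nupr1, and Ddit4 is highest with Ito cells after 1 day in both cell types.

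Other cells and the cell cycle moved with these Kupffer values. The 11 cell cycle genes averaged 7.25 to 7.34 in the control arrays against 12.41 to 12.94 with HGF, 12.13 to 12.34 with Ito cells and 12.79 to 12.95 with CD146 cells, and 11, 11 and 11 of 11 rose. Of 9 core macrophage markers 7, 6 and 6 fell, their mean going from 16.23 to 16.52 to 13.67 to 14.14, 14.09 to 14.23 and 13.79 to 13.81. Of 12 hepatocyte markers 8, 8 and 2 rose. Their mean was 3.56 to 3.74 in the control, with 0 of 12 above the negative controls. It was 5.60 to 6.50, 5.35 to 5.75 and 4.21 to 4.50 with HGF, Ito and CD146 cells, with 8, 5 and 2 of 12 above. Of 11 sinusoidal endothelial markers 9, 5 and 3 rose, with means of 4.18 to 4.25 in the control and 5.96 to 6.81, 5.45 to 5.58 and 5.14 to 5.21 with the additions. Of 12 Ito cell and myofibroblast markers 2, 1 and 2 rose and 1, 5 and 2 fell. B cell markers (6) and T and NK cell markers (7) had at most 1 call each way in these 3 comparisons. The part of these cells and of the cell cycle in the changes was not tested.

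In monocytic macrophages after 3 days, HGF and Ito cells came with rises of Mthfd2, Asns, Psat1, Atf4 and 3 of the 5 tRNA synthetases (Gars, Sars and Mars1), while CD146 cells came with 1 call. With HGF 15 of 34 rose (all genes 7.56%) and 0 fell (2 at an unadjusted p under 0.05 in limma; all genes 5.46%). With Ito cells 11 rose (all genes 5.8%) and 0 fell (1 unadjusted; all genes 6.66%). With CD146 cells 1 rose (all genes 1.22%) and 0 fell (1 unadjusted; all genes 1.18%), the share of the 34 that rose being near that of all genes. The median differences were 0.60, 0.34 and 0.06, against -0.02, 0.04 and 0.06 over all genes. Without the third control array, which stood apart, the counts were 16, 12 and 2, all of them rises, and without the second the CD146 count was 2. Median centring left 180 of all genes risen and 304 fallen with CD146 cells, from 237 and 231.

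Mthfd2 rose most. Its signals were 6.04, 6.19 and 8.99 in the monocytic control, 10.94, 11.53 and 11.55 with HGF, 10.49, 10.92 and 10.80 with Ito cells and 7.90, 8.01 and 8.64 with CD146 cells. The third control array lay well above the other 2, within reach of the CD146 arrays but below all arrays with HGF and Ito cells. The rises were 4.26 ± 0.43 (SE, adjusted p = 1.64e-09) with HGF and 3.66 ± 0.43 (SE, adjusted p = 7.12e-08) with Ito cells, and 5.22 and 4.62 without that array. Asns measured 9.16, 9.23 and 9.60 in the control, 13.56, 12.57 and 13.04 with HGF, 10.71, 10.81 and 10.18 with Ito cells and 8.77, 9.83 and 9.77 with CD146 cells. The HGF arrays stood highest, the Ito arrays were above the control, and the CD146 arrays overlapped it. The differences were 3.73 ± 0.31 (SE, adjusted p = 1.39e-11), 1.23 ± 0.31 (SE, adjusted p = 0.005) and 0.13 ± 0.31 (SE, adjusted p = 0.93). Psat1 gave 7.06, 7.83 and 9.93 in the control, 10.75, 10.49 and 10.92 with HGF, 10.45, 10.97 and 9.90 with Ito cells and 7.22, 7.98 and 8.06 with CD146 cells. The third control lay above one Ito array, so these groups overlapped, while the HGF arrays were higher than all controls. Psat1 rose by 2.45 ± 0.40 (SE, adjusted p = 3.13e-05) and 2.17 ± 0.40 (SE, adjusted p = 0.000175), by 3.27 and 2.99 without the third control and by 1.84 and 1.56 without the first. The Ito call was lost in a fit of the compared arrays alone (adjusted p = 0.0804).

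Atf4 itself measured 11.99, 12.35 and 13.09 in the monocytic control, 14.38, 14.54 and 15.25 with HGF, 13.52, 13.86 and 13.57 with Ito cells and 12.92, 12.82 and 12.61 with CD146 cells. It was highest with HGF and above the controls with Ito cells, by 2.24 ± 0.25 (SE, adjusted p = 1.18e-08) and 1.17 ± 0.25 (SE, adjusted p = 0.000779). Ddit3 rose with HGF, by 1.07 ± 0.28 (SE, adjusted p = 0.00719), from 8.79, 8.45 and 8.94 to 9.82, 9.72 and 9.84, a call lost without control replicate 2. Its difference with Ito cells (0.32) did not pass, and with CD146 cells its mean was that of the control (8.72 and 8.72). Nupr1 differed by -0.03, -0.52 and 0.41, none past the threshold.

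Among the other enzymes, Aldh18a1 rose by 2.32 with HGF, Mthfd1 by 1.24 with Ito cells, and Shmt2 and Mthfd1l with both (1.15 and 1.27, 0.88 and 1.50). Shmt1, whose control lay below the negative controls, did not pass with any addition (0.07, 0.37 and -0.11). Phgdh passed with HGF, from 4.85, 5.23 and 4.19 to 5.80, 5.80 and 5.86, but its control lay below the negative controls and the call was lost without any 1 HGF array, without control replicate 1 or 3 and in a fit of the compared arrays. Slc38a2, which carries small neutral amino acids, was the member called higher with each addition, in 3 comparisons that share their 3 control arrays. Over the 16 groups Slc38a2 was lowest in that control, at 12.88. It measured 12.86, 12.63 and 13.14 in the control, 14.59, 14.78 and 14.21 with HGF, 14.71, 14.58 and 14.92 with Ito cells and 14.16, 14.55 and 14.55 with CD146 cells, rising by 1.65 ± 0.26 (SE, adjusted p = 1.82e-05), 1.86 ± 0.26 (SE, adjusted p = 2.55e-06) and 1.54 ± 0.26 (SE, adjusted p = 0.000224). Slc7a5 rose by 1.26 with HGF, and its differences of 0.67 and -1.21 with the added cells did not pass. Of the tRNA synthetases, Gars rose by 1.33 and 1.18, Sars by 1.80 and 1.11, the methionyl enzyme Mars1 by 1.81 and 1.26, and the tryptophanyl enzyme Wars by 0.64 with HGF. Nars passed with no addition. The HGF calls of Shmt2, Mthfd1l and Wars, and the Ito call of Mthfd1, were lost in a fit of the compared arrays alone, and those of Shmt2, Slc7a5 and Wars with HGF under quantile normalization. Leaving out 1 array ended the HGF calls of Mthfd1l (HGF replicate 1 or 3, control replicate 1 or 2), Shmt2 (HGF replicate 3, control replicate 1 or 2), Slc7a5 (HGF replicate 1 or 3, control replicate 1 or 2) and Wars (HGF replicate 1 or 3, control replicate 1 or 2). It ended the Ito calls of Mars1 (Ito replicate 2 or 3, control replicate 1 or 2) and Mthfd1 (control replicate 1).

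The cell cycle list moved with these values too. Its mean was 10.82 to 11.28 with HGF, 11.56 to 11.82 with Ito cells and 7.04 to 7.51 with CD146 cells, and 10, 11 and 0 of its 11 genes rose (with CD146 cells 0 rose and 6 fell at an unadjusted p under 0.05 in limma). Its part was not tested. Hepatocyte markers lay above the negative controls in 0, 0, 1 and 0 of 12 genes in the control, HGF, Ito and CD146 groups, and endothelial markers in 2 of 11 in each. Of 12 Ito cell and myofibroblast markers 8, 7 and 6 fell with HGF, Ito cells and CD146 cells, from 6.06 to 7.06 in the control arrays.

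**Figure D3:**
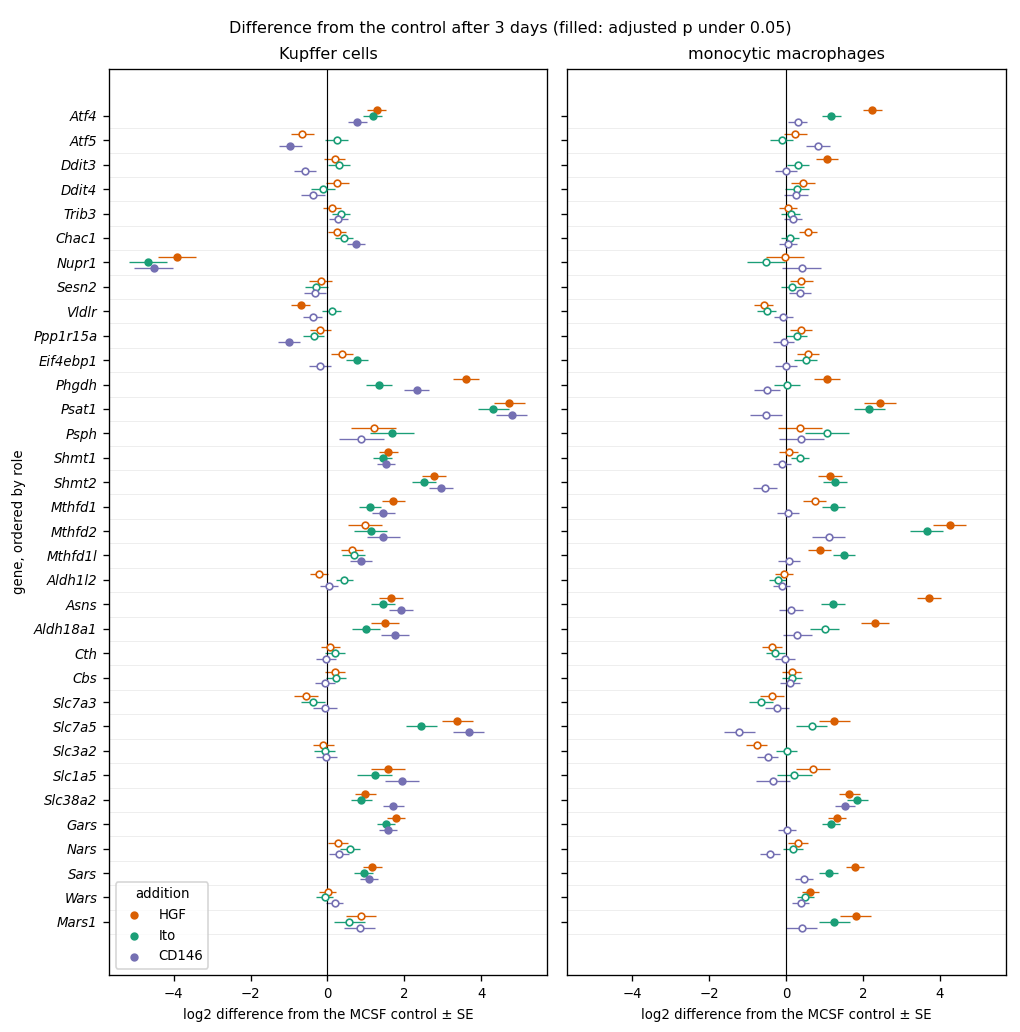
Log2 difference (± SE, 3 arrays against 3) of 34 genes from the MCSF control after 3 days, in Kupffer cells (left) and monocytic macrophages (right), by addition, with filled points where the adjusted p was under 0.05 and no all-gene shift taken off. Psat1 reaches 4.73 with HGF in Kupffer cells and Mthfd2 4.26 in monocytic macrophages, and the monocytic CD146 points are open except for Slc38a2.

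The additions to monocytic macrophages were also set against each other, in 2 comparisons added after the values were seen. With HGF 13 members were higher than with CD146 cells (all genes 9.47%) and 0 lower (1 unadjusted in limma; all genes 7.85%). With Ito cells 9 were higher (all genes 5.82%) and 1 lower (all genes 5.49%). The 2 comparisons share the CD146 arrays. Asns was higher by 3.60 ± 0.31 (SE, adjusted p = 9.27e-11) with HGF and 1.11 ± 0.31 (SE, adjusted p = 0.0135) with Ito cells, Mthfd2 by 3.15 and 2.55, Psat1 by 2.96 and 2.69, and Slc7a5 by 2.46 and 1.88. Shmt2 (1.68 and 1.81), Atf4 (1.93 and 0.87) and Gars (1.30 and 1.14) were also higher with both. With HGF Aldh18a1 (2.02), Mars1 (1.40), Sars (1.33), Ddit3 (1.07) and Nars (0.73) were higher, as was Phgdh, whose CD146 arrays lay below the negative controls. With Ito cells Mthfd1l (1.43) and Mthfd1 (1.18) were higher. Slc38a2, called against the control with each addition, differed by 0.11 and 0.31 here, without passing. The 1 lower gene with Ito cells was Atf5, at -0.95, a call lost under median centring. Leaving out 1 array ended the Ito calls of Asns (CD146 replicate 1, Ito replicate 1 or 2), Atf4 (CD146 replicate 3, Ito replicate 2) and Atf5 (CD146 replicate 1 or 2, Ito replicate 1 or 3) and the HGF calls of Mars1 (CD146 replicate 1, HGF replicate 3) and Nars (CD146 replicate 2 or 3, HGF replicate 1 or 2). With centring, all genes split into 2372 higher and 941 lower for HGF against CD146, from 1848 and 1531, with 16 members higher and 0 lower. For Ito against CD146 centring gave 9 members higher and 0 lower.

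The responses of Kupffer cells and monocytic macrophages to the same addition were compared directly as a difference of differences. After 3 days with HGF the response of 5 members was higher in Kupffer cells (all genes 7.58%) and that of 3 lower (all genes 7.61%). With Ito cells 3 were higher (all genes 4.58%) and 2 lower (all genes 4.16%). With CD146 cells 10 were higher (all genes 9.64%) and 2 lower (all genes 8.54%). The share of members that was lower was near that of all genes with HGF (8.82%) and Ito cells (5.88%), and below it with CD146 cells (5.88%). A lower response is not by itself a fall in Kupffer cells. Asns rose with HGF in both cell types but less in Kupffer cells, and the Kupffer difference of Mthfd2 with HGF was upward without passing. Psat1 responded more in Kupffer cells, by 5.31 ± 0.57 (SE, adjusted p = 1.41e-09) with CD146 cells. With HGF its difference was 2.28, or 1.46 without the third monocytic control and 2.89 without the first. With Ito cells it was 2.15, or 1.32 (adjusted p = 0.074) and 2.75 without the same arrays. With CD146 cells it was 4.48 and 5.91 without them. Slc7a5 responded more by 2.12, 1.77 and 4.89 with HGF, Ito cells and CD146 cells, and Phgdh by 2.54 with HGF and 2.81 with CD146 cells, its monocytic control being below the negative controls. Mthfd2 went the other way, by -3.29 ± 0.61 (SE, adjusted p = 0.000103) with HGF and -2.54 ± 0.61 (SE, adjusted p = 0.00375) with Ito cells, and by -4.24 and -3.49 without the third monocytic control. Asns differed by -2.08 with HGF and by 1.79 with CD146 cells, so the sign depended on the addition. Nupr1 differed by -3.88, -4.14 and -4.93. In fits of the compared arrays alone the calls of Psat1 with HGF and of Psat1 and Mthfd2 with Ito cells were lost, and the Ito call of Slc7a5 was lost under median centring and the replicate block and without 1 of 8 arrays (Kupffer Ito replicate 1 or 3, Kupffer control replicate 1 or 3, monocytic Ito replicate 1 or 3, monocytic control replicate 2 or 3). With Ito cells 3 members were called without Kupffer Ito replicate 1 or 3, monocytic Ito replicate 1 or 3, or monocytic control replicate 3, and under median centring, which gave 1 up and 2 down. Centring also split all genes into 1134 up and 2175 down for HGF, from 1479 and 1485, and into 696 and 958 for Ito cells, from 894 and 812.

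The MCSF controls differed by cell type. After 3 days 6 members were higher in Kupffer cells (all genes 6.38%) and 0 lower (0 unadjusted in limma; all genes 5.7%). They were Mthfd2 (2.85), Nupr1 (2.76), Mthfd1l (1.62), Asns (1.39), Wars (0.79) and Phgdh, the last against monocytic arrays below the negative controls. The call of Wars was lost in a fit of the compared arrays and without Kupffer replicate 2 or 3 or monocytic replicate 1 or 2. Without the third monocytic control 11 members were called, 10 of them higher, and Mthfd2 differed by 3.80. After 1 day 7 were higher in Kupffer cells (all genes 9.73%) and 1 lower (all genes 11.6%), which were Slc7a5 (2.80), Shmt2 (2.34), Gars (0.88), Slc38a2 (0.79), and Phgdh, Vldlr and Sesn2. The monocytic arrays of these last 3 lay below the negative controls, as did the Kupffer arrays of Sesn2. Nupr1 was the lower one, at -2.54. Its Kupffer arrays were 7.12, 10.57 and 10.85 against 11.72, 12.20 and 12.24 in monocytic macrophages. Without the first Kupffer array, which stood apart, Nupr1 differed by -1.35, Slc7a5 by 2.16, and 4 members were called in all. Without the third, Nupr1 differed by -3.21. In a fit of the compared arrays alone the calls of Nupr1 (adjusted p = 0.134), Phgdh (0.0656), Gars, Slc38a2, Vldlr and Sesn2 were lost, and median centring ended those of Sesn2, Slc38a2 and Vldlr. Leaving out 1 array ended the calls of Gars (Kupffer control replicate 1), Slc38a2 (Kupffer control replicate 1, monocytic control replicate 2 or 3), Vldlr (Kupffer control replicate 1 or 2, monocytic control replicate 1, 2 or 3) and Sesn2 (Kupffer control replicate 1, monocytic control replicate 1). Median centring gave 4 members higher and 2 lower, and 1196 and 4849 of all genes, from 1897 and 2260. At this time all 11 endothelial markers and 8 of 12 hepatocyte markers were higher in the Kupffer control (means 6.90 to 9.45 and 5.63 to 7.48, against 4.22 to 4.28 and 3.78 to 3.81), as were 4 of 6 B cell markers, 4 of 7 T and NK cell markers and 8 of 11 cell cycle genes. The B cell markers averaged 3.93, 9.28 and 9.93 on the 3 Kupffer arrays, against 5.51 to 5.66, and the T and NK cell markers 4.49, 6.80 and 7.04, against 4.91 to 5.07. Both were thus high on 2 Kupffer arrays and, on the first, lower than in monocytic macrophages. The cell cycle genes averaged 8.63 to 9.73 against 6.71 to 7.02. Their part was not tested.

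Time in MCSF came with higher Atf5 and Trib3 and lower Atf4, Ddit4 and Slc38a2 in both cell types. From 1 to 3 days 4 members rose (11.8%, all genes 21.5%) and 7 fell (20.6%, all genes 10.2%) in Kupffer cells. In monocytic macrophages 6 rose (17.6%, all genes 19.5%) and 6 fell (17.6%, all genes 9.82%). The share of members that rose was thus below that of all genes in Kupffer cells and near it in monocytic macrophages. The all-gene median shifted by 0.15 and 0.13, and the values here are given less it. Atf5, a factor of the ATF4 family, measured 4.98, 5.62 and 5.07 at 1 day and 6.87, 7.19 and 7.01 at 3 days in Kupffer cells, and 5.63, 5.69 and 5.40 and 7.77, 8.20 and 6.75 in monocytic macrophages. The times did not overlap, and it rose by 1.65 ± 0.30 (SE, adjusted p = 8.38e-06) and 1.87 ± 0.30 (SE, adjusted p = 1.72e-06). Trib3 rose by 1.31 and 1.35, from 4.17 and 4.16 at 1 day, both below the negative controls. Atf4 fell by 0.88 and 1.06 and Slc38a2 by 1.28 and 1.23. Ddit4, an inhibitor of mTORC1, fell by 1.15 and 2.31, to below the negative controls. Nupr1 rose by 3.43 in Kupffer cells and fell by 1.85 in monocytic macrophages. In Kupffer cells Slc7a5 fell by 2.27, Psat1 by 1.62, Shmt2 by 1.33 and Psph by 1.93. Without the first Kupffer control of 1 day, and before the shift is taken off, the differences of Nupr1, Slc7a5 and Psph were 2.38, -1.47 and -0.81, against 4.25 for Nupr1 without the third. In monocytic macrophages Mthfd2 fell by 1.89 and Mthfd1l by 1.63, while Shmt2 rose by 1.10. Phgdh rose by 0.83 in Kupffer cells and passed in monocytic macrophages, where it was below the negative controls at both times. Shmt1, below them at both times, and Vldlr, below them at 1 day, also passed upward in monocytic macrophages. Without the third monocytic control of 3 days the unshifted difference of Mthfd2 was -2.72, and the fall of Nupr1 was lost without it (adjusted p = 0.0661). Leaving out 1 array also ended the Kupffer calls of Atf4 (1-day replicate 3, 3-day replicate 2 or 3), Ddit4 (1-day replicate 3, 3-day replicate 2), Phgdh (1-day replicate 2 or 3, 3-day replicate 3), Psat1 (1-day replicate 2), Psph (1-day replicate 1, 3-day replicate 2 or 3) and Shmt2 (1-day replicate 1) and the monocytic calls of Atf4 (3-day replicate 1), Phgdh (1-day replicate 1, 3-day replicate 1 or 2) and Shmt1 (1-day replicate 1 or 2, 3-day replicate 1, 2 or 3). In fits of the compared arrays alone Atf4, Phgdh, Psph and Shmt2 in Kupffer cells and Mthfd2 and Shmt1 in monocytic macrophages were lost. Quantile normalization ended the Kupffer call of Phgdh and the monocytic calls of Shmt1 and Shmt2, and median centring the monocytic calls of Phgdh and Shmt1. Over the same time in Kupffer cells endothelial markers fell in 11 of 11 genes (array means 6.90 to 9.45 at 1 day and 4.18 to 4.25 at 3 days), hepatocyte markers in 10 of 12 (5.63 to 7.48 and 3.56 to 3.74) and B cell markers in 5 of 6 (3.93 to 9.93 and 4.52 to 4.57). T and NK cell markers fell in 3 of 7 and cell cycle genes in 7 of 11 (8.63 to 9.73 and 7.25 to 7.34). Core macrophage markers rose in 5 of 9 and fell in 1 (14.41 to 15.39 and 16.23 to 16.52), and Ito cell and myofibroblast markers rose in 7 of 12 (5.14 to 5.58 and 6.78 to 7.35). In monocytic macrophages the latter rose in 8 of 12 (4.70 to 4.88 and 6.06 to 7.06) and cell cycle genes in 7 of 11 (6.71 to 7.02 and 6.97 to 11.93). Their part was not tested. Quantile normalization gave 3 rises and 11 falls in Kupffer cells and 4 and 7 in monocytic macrophages, and median centring 4 and 9 in the latter. Of all genes, 3072 rose and 2930 fell in Kupffer cells by quantile normalization, from 4201 and 1996. In monocytic macrophages these were 2833 and 2685 by quantile normalization and 2109 and 4024 by centring, from 3800 and 1916.

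After 1 day the gene that stood out was Ddit4, with Ito cells, in both cell types. In Kupffer cells it measured 5.44, 5.18 and 5.75 in the control and 7.37, 7.79 and 8.06 with Ito cells, 5.94, 3.99 and 4.92 with HGF and 4.73, 4.35 and 4.25 with CD146 cells. In monocytic macrophages the values were 6.13, 5.51 and 6.02, 7.96, 6.87 and 7.15, 4.51, 4.79 and 5.18 and 4.99, 5.04 and 4.53. Arrays with Ito cells were above all others of their cell type and day. Ddit4 lay below the negative controls in 11 of the 16 groups. The controls of 1 day were near them (medians 5.20 in Kupffer cells and 5.47 in monocytic macrophages), so the size of the rises is less certain. Ddit4 rose by 2.52 ± 0.31 (SE, adjusted p = 6.23e-07) and 1.72 ± 0.31 (SE, adjusted p = 0.00146) with Ito cells, both calls holding in every alternative run for them, and the difference between the cell types before the shifts are taken off, 0.84, did not pass (adjusted p = 0.309).

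In Kupffer cells with Ito cells of 1 day 3 of 34 rose (8.82%, all genes 5.47%) and 5 fell (14.7%, all genes 18%). The share that rose was somewhat above that of all genes and the share that fell somewhat below. The all-gene shift of -0.24 is taken off here. Beside Ddit4, Asns rose by 1.31 and Ddit3 by 1.23, while Shmt2 fell by 1.07, Vldlr by 0.95 and Aldh18a1 by 0.82. Vldlr fell to below the negative controls, so the size of its fall is uncertain. The other falls, of Cth and Slc7a3, lay below them in both groups. Asns and Ddit3 lost their calls without control replicate 1, when 3 members were called, and 4 were called without Ito replicate 1, Asns not among them. The fall of Aldh18a1 was lost under both rescalings and without Ito replicate 1 or 3 or control replicate 1. The fall of Shmt2 and the rise of Ddit3 were lost in a fit of the compared arrays. Quantile normalization gave 3 up and 2 down, centring 8 and 2. With HGF 1 rose (2.94%, all genes 4.13%) and 4 fell (11.8%, all genes 13.4%), with a shift of -0.17. Both shares were near those of all genes. Asns was the risen gene, at 1.37, from 9.72, 10.27 and 9.86 to 10.07, 12.07 and 11.32, and Psph fell by 1.65, or by 0.84 before the shift without control replicate 1. The arrays of both overlapped with the control. Aldh18a1, Slc38a2 and Ddit3 also fell, by 1.04, 0.75 and 0.63. Ddit3 had 2 probe sets, and with their mean its difference before the shift was -0.23 and its call was lost (adjusted p = 0.531 in limma). None of these HGF calls remained in a fit of the compared arrays alone or without HGF replicate 2, which stood apart, 9 were made without replicate 1 and 9 without replicate 3, and the split was 3 up and 1 down by quantile normalization and 2 and 0 by centring. With CD146 cells 0 rose (all genes 1.32%) and 0 fell (all genes 2.46%) in limma, 1 and 6 at an unadjusted p under 0.05, and 1 fell without control replicate 1. Endothelial markers fell in 4, 11 and 10 of 11 genes with HGF, Ito cells and CD146 cells, hepatocyte markers in 1, 8 and 1 of 12 and B cell markers in 4, 1 and 6 of 6, and their part was not tested. T and NK cell markers fell in 5, 1 and 1 of 7.

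In monocytic macrophages of 1 day, HGF came with a shift of all genes by -0.55. Of the 34, 0 rose (0 unadjusted in limma; all genes 0.22%) and 9 fell (all genes 37.2%), a smaller share than of all genes. By quantile normalization 0 rose and 0 fell, and by centring 1 rose and 0 fell, so no direction is given for these 9 genes, which were Aldh18a1, Mthfd1, Atf5, Ddit4, Phgdh, Aldh1l2, Ppp1r15a, Cbs and Chac1. With Ito cells (shift -0.28) 1 rose, Ddit4 (2.94%, all genes 1.91%), and 2 fell (5.88%, all genes 13.6%), Chac1 and Ppp1r15a, both below the negative controls. The share that rose was near that of all genes and the share that fell was below it. Quantile normalization gave 3 up and 0 down and centring 4 and 0, and 1 call was left without Ito replicate 2 or control replicate 2. With CD146 cells Gars rose by 0.90 (1 gene; all genes 1%) and Nupr1 fell by 2.05 (1 gene; all genes 1.33%), from 11.72, 12.20 and 12.24 to 10.39, 9.93 and 9.69 without overlap. No call was made without CD146 replicate 3 or control replicate 2 or 3, and 1 without CD146 replicate 1 or 2 or control replicate 1, and quantile normalization gave 2 up and 1 down.

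Over all genes at 1 day, rises and falls went from 805 and 2616 to 1164 and 1158 by quantile normalization for Kupffer cells with HGF. They went from 1067 and 3517 to 1611 and 1558 with Ito cells. In monocytic macrophages they went from 43 and 7264 to 223 and 212 with HGF, and from 373 and 2656 to 912 and 847 with Ito cells. The difference of the 2 cell types' responses at 1 day was called upward in 3 members (all genes 20.9%) and downward in 1 (all genes 2.26%) for HGF, where the median over all genes was 0.36. Quantile normalization made 0 such calls, centring 1 up and 3 down, and 2 were left without Kupffer HGF replicate 2. For Ito cells 1 member, Asns, was called upward, by 1.55 (all genes 1.85%), and 0 downward (4 unadjusted in limma; all genes 1.9%). That call was lost without Kupffer Ito replicate 1, 2 or 3, Kupffer control replicate 1, monocytic Ito replicate 1 or 2, or monocytic control replicate 1 or 2. It was joined by 1 more without Kupffer control replicate 2 and by 3 without replicate 3. For Ito cells, quantile normalization gave 0 up and 1 down. For CD146 cells 0 were called upward (all genes 0.164%) and 0 downward (all genes 0.713%) in limma, 0 and 1 unadjusted.

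Other genes of these pathways, from lists written with earlier results known, were counted in the same fits. The shares of all genes that rose or fell in the 6 comparisons of 3 days were given above with the members' counts, in Kupffer cells 14% to 14.5% risen and 12.3% to 13.1% fallen, and in monocytic macrophages 7.56% and 5.46% with HGF, 5.8% and 6.66% with Ito cells and 1.22% and 1.18% with CD146 cells. Of 13 further cytosolic tRNA synthetases, 10, 7 and 10 rose in Kupffer cells after 3 days with HGF, Ito cells and CD146 cells, and 8, 9 and 0 in monocytic macrophages. None fell, also at an unadjusted p under 0.05 in limma (0 genes in each). The tyrosyl enzyme Yars rose by 1.84, 1.32 and 2.03 in Kupffer cells and by 1.59 and 1.26 in monocytic macrophages with HGF and Ito cells. Of 12 eIF2 kinases and eIF2 machinery genes, 3, 3 and 3 rose and 4, 3 and 3 fell in Kupffer cells. The eIF2B subunit Eif2b1 rose by 1.34, 1.38 and 1.33, and the haem-regulated kinase Eif2ak1 fell by 1.18, 1.13 and 0.83. In monocytic macrophages 3, 2 and 0 rose and 0, 1 and 0 fell, with 0, 1 and 0 falling unadjusted.

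Of 14 other partners and targets of ATF4, 2 rose and 2 fell with each addition in Kupffer cells, shares near those of all genes, and 4, 3 and 0 rose and 0 fell in monocytic macrophages, with 0, 0 and 1 falling at an unadjusted p under 0.05 in limma. The cationic amino acid transporter Slc7a1 rose by 2.95, 2.32 and 3.15 in Kupffer cells and by 2.86 and 2.29 in monocytic macrophages with HGF and Ito cells. The cystine transporter Slc7a11 went the other way in Kupffer cells. It measured 16.47, 16.28 and 16.15 in the Kupffer control, 12.84, 11.22 and 11.96 with HGF, 14.76, 12.55 and 13.93 with Ito cells and 11.21, 11.80 and 11.08 with CD146 cells, falling by 4.29, 2.67 and 4.93 without overlap with the control. In monocytic macrophages it rose by 1.86 with Ito cells. Atf3, a stress-induced factor, rose by 1.84, 1.94 and 1.96 in Kupffer cells.

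Of 15 chaperone and other unfolded protein response genes of the endoplasmic reticulum, 5, 4 and 5 rose in Kupffer cells and 7, 9 and 0 in monocytic macrophages, with at most 1 fall in each. The chaperone Hspa5 (BiP) rose by 1.02, 0.75 and 0.94 in Kupffer cells, and the disulfide isomerase Pdia6 by 1.73 and 2.07 in monocytic macrophages with HGF and Ito cells. Of 15 other folate, glycine and nucleotide genes, 6 rose and 2 fell with HGF in Kupffer cells, 6 and 2 with Ito cells, and 6 and 3 with CD146 cells. In monocytic macrophages the counts were 5 and 1, 5 and 1, and 0 and 0. Gcsh, of the glycine cleavage system, rose by 2.48, 1.85 and 2.44 in Kupffer cells and by 1.86 and 1.58 in monocytic macrophages. The proton-coupled folate transporter Slc46a1 fell by 1.68, 1.93 and 1.88 in Kupffer cells. With CD146 cells in monocytic macrophages the 5 lists had 0 calls in limma, and 11 genes passed an unadjusted p under 0.05.

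The members' levels also tracked each other and the cell cycle to different degrees across the 16 group means, which share arrays, controls and processing. These correlations are descriptions. The mean of the 9 serine and folate genes correlated with the mean of the 11 cell cycle genes at r = 0.927, and the mean of the 11 signalling and feedback genes at r = 0.187. The latter mean joins genes that went opposite ways, such as Atf4 (0.577) and Trib3 (0.579) against Ddit4 (-0.457) and Nupr1 (-0.762). It also holds Chac1, Sesn2 and Ppp1r15a, and the former mean Aldh1l2, which lay below the negative controls in all 16 groups. By gene the correlation with the cell cycle mean was highest for Shmt2 (0.968) and Gars (0.919) and lowest for Nupr1 (-0.762), and it was over 0.8 in 9 of 34. With Atf4 mRNA it was over 0.8 for 1 of the 33 others, Mthfd2 (0.838), with Asns at 0.796. The most alike pairs of members were Aldh18a1 with Mars1 (r = 0.939) and Psat1 with Gars (r = 0.933). The monocytic control array that stood apart had cell cycle genes at 11.93, and the arrays with HGF at 10.82 to 11.28. Its serine and folate genes averaged 7.16, those of the other 2 controls 6.14 and 6.29, and those with HGF 7.53 to 8.05.

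**Figure D4:**
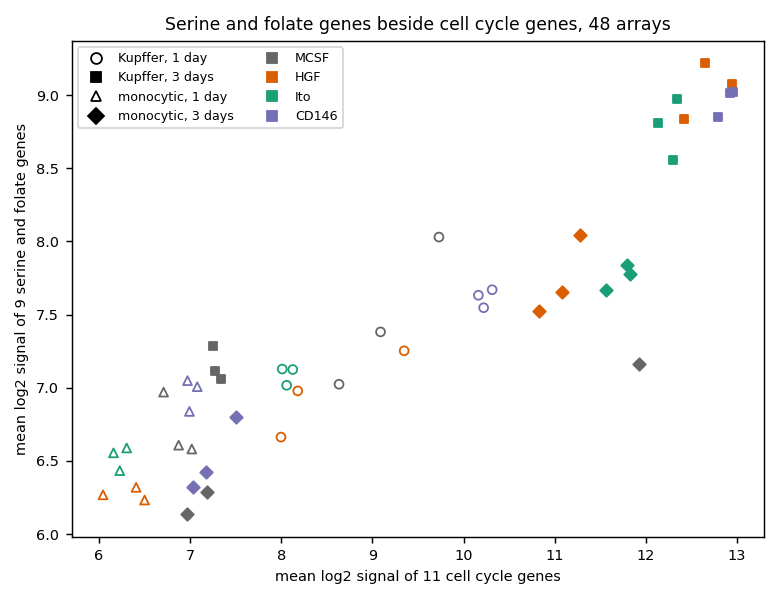
Mean log2 signal of 9 serine and folate genes (vertical axis) against that of 11 cell cycle genes (horizontal axis) on each of 48 arrays, by addition (colour), cell type and time (symbol). The 9 Kupffer arrays kept 3 days with an addition lie at the upper right and the 3 Kupffer controls of that time at a cell cycle mean of 7.25 to 7.34, and the third monocytic control of 3 days lies apart from the other 2 at 11.93.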

How the data were processed

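The deposited values were log2 signals of 28846 probe sets on 48 arrays, which the authors had made with RMA in the Transcriptome Analysis Console, per the submitters' processing notes. No source used here says if the 48 arrays were normalized in 1 run. They did not share 1 distribution, their medians over all genes lying between 4.27 and 5.51, so values compared between groups depend on the scaling. The build and the versions of those tools are not given in the sources used here. Control probe sets (6640, of which 5222 negative controls) and 2634 transcript probe sets without a symbol were left out. The other 19572 gave 19505 genes, the probe set of the highest mean standing for each of 55 genes with several. Arrays give no read depth, so 3 arrays a group limit the precision.

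Group means were fitted to all 48 arrays with limma 3.58.1 (R 4.3.3, lmFit, contrasts.fit, eBayes, two-sided), and p-values were adjusted by Benjamini-Hochberg over 19505 genes in each comparison, with a threshold of 0.05. There were 22 comparisons, and 2 more were added after their values were seen. Where the median difference over all genes passed 0.1 it was taken off the printed differences. Of the 34 members, those past the threshold were named in the report or the closing section, with the rest by count or range. Other genes of a pathway were planned to be named by the smallest adjusted p. The members and lists were chosen with earlier results of these data known. Alternatives were median centring, quantile normalization, array weights, trend and robust fitting, a fit of the compared arrays alone, the mean of probe sets, no probe sets of the dimmest 25%, a replicate block, each array left out, and 3 arrays left out together. Promoters came from RefSeq on GRCm38.p6. Tables were handled in Python 3.11.15 with pandas 2.3.3, and figures drawn with matplotlib 3.10.9.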

Additional observations from a re-analysis of the deposited data

Results flagged for a closer look

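The responses of Kupffer cells and monocytic macrophages to the same addition differed, by limma's test of the difference of differences, in the members given here, each as the Kupffer response less the monocytic one on the log2 scale. With CD146 cells after 3 days these were Psat1 (5.31), Slc7a5 (4.89), Shmt2 (3.49), Phgdh (2.81), Slc1a5 (2.28), Asns (1.79), Shmt1 (1.62), Gars (1.54), Aldh18a1 (1.46) and Mthfd1 (1.40) upward, and Nupr1 (-4.93) and Atf5 (-1.81) downward. The call of Aldh18a1 was lost under median centring and without Kupffer CD146 replicate 1 or 2, Kupffer control replicate 1 or 2, monocytic CD146 replicate 1 or 2 or monocytic control replicate 3, and that of Mthfd1 without monocytic control replicate 3.

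With HGF after 3 days the differing members were Phgdh (2.54), Psat1 (2.28), Slc7a5 (2.12), Shmt2 (1.62) and Shmt1 (1.52) upward and Nupr1 (-3.88), Mthfd2 (-3.29) and Asns (-2.08) downward. With Ito cells after 3 days they were Psat1 (2.15), Slc7a5 (1.77) and Shmt1 (1.06) upward and Nupr1 (-4.14) and Mthfd2 (-2.54) downward. In these comparisons and those with CD146 cells, Phgdh lay below the negative controls in the monocytic control, and Shmt1 in the controls of both cell types. Shmt1 lay below them in 12 of the 16 groups, so the size of its differences is uncertain. Slc7a5, Shmt1 and Psat1 of the Ito calls lost their call without single arrays, the third monocytic control among them for each. The Ito call of Shmt1 was also lost under median centring, quantile normalization and in a fit of the compared arrays alone.

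After 1 day with HGF, less the shift of all genes by 0.36, Asns (1.03), Aldh1l2 (1.01, below the negative controls) and Mthfd1 (0.90) differed upward and Psph (-3.12) downward. These 4 calls were lost under quantile normalization and in a fit of the compared arrays alone. Before the shift, the difference of Psph was -2.76, or -1.78 (adjusted p = 0.0673) without Kupffer control replicate 1 and -3.36 without monocytic control replicate 3. Leaving out 1 array ended the calls of Asns (Kupffer HGF replicate 2), Mthfd1 (Kupffer HGF replicate 1, Kupffer control replicate 3, monocytic HGF replicate 1, monocytic control replicate 1) and Psph (Kupffer HGF replicate 2, Kupffer control replicate 1, monocytic control replicate 2). After 1 day with Ito cells Asns differed by 1.55, a call lost under quantile normalization.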

How the results depend on the processing

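Of 195 calls of a member in the 24 comparisons, none reversed under any alternative run. Median centring ended 36, quantile normalization 32, a fit of the compared arrays alone 39, leaving out 3 arrays together 18, trend and robust fitting 4, array weights 3, the mean of probe sets 1, and leaving out the dimmest 25% of genes 3 of 190. Leaving out 1 array ended 72 at least once. Every setting kept 14 of 19 calls for Kupffer cells after 3 days with CD146 cells, 11 of 15 with HGF and 10 of 17 with Ito cells, 9 of 15 and 8 of 11 for monocytic macrophages with HGF and Ito cells, and 0 of 5 and 0 of 9 for HGF after 1 day in Kupffer cells and monocytic macrophages. Samples of equal replicate number did not deviate together (mean r = -0.0103, against 0.0055 for unequal numbers, over 120 pairs of groups), so the replicate block is an alternative only. The block ended 3 of 195 calls and moved the count for Kupffer cells with CD146 cells after 1 day from 0 to 1.

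The counts of members called that moved by over 1.5 times were as follows, and the cause was not tested. In Kupffer cells of 1 day the 5 with HGF became 2 under centring, 0 with the compared arrays alone and 1 without the 3 arrays, and the 8 with Ito cells 13 with array weights, 4 with the compared arrays alone and 5 by quantile normalization. The 0 with CD146 cells became 8 with array weights, 2 by quantile normalization, 4 without the 3 arrays and 1 without the dimmest genes. In monocytic macrophages of 1 day the 9 with HGF became 1 under centring, 0 by quantile normalization and 5 without the dimmest genes. The 3 with Ito cells became 11 with array weights, 10 with the compared arrays and 8 without the 3 arrays, and the 2 with CD146 cells 5, 4 and 4 in the same settings. With CD146 cells after 3 days the 1 became 3 with array weights and 2 without the 3 arrays. Kupffer cells against monocytic macrophages in MCSF gave 8 at 1 day, or 13 with array weights, 2 with the compared arrays and 5 without the 3 arrays, and 6 at 3 days, or 11 with array weights and 11 without the 3 arrays. From 1 to 3 days in MCSF the 11 Kupffer calls became 19 with array weights and 7 with the compared arrays. The differences of responses with HGF gave 4 at 1 day, or 9 with array weights, 0 with the compared arrays, 0 by quantile normalization, 2 without the 3 arrays and 2 without the dimmest genes, and 8 at 3 days, or 15 with array weights. With Ito cells they gave 1 at 1 day, or 8 with array weights and 2 under centring, and 5 at 3 days, or 9 with array weights, 3 under centring, 2 with the compared arrays and 8 without the 3 arrays. With CD146 cells at 1 day they gave 0, or 3 with array weights.

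Leaving out each array in turn gave 0 to 9, 3 to 12 and 0 to 1 members called for Kupffer cells after 1 day with HGF, Ito cells and CD146 cells, and 14 to 16, 12 to 17 and 17 to 19 after 3 days. For monocytic macrophages it gave 6 to 8, 1 to 3 and 0 to 1 after 1 day, and 10 to 16, 9 to 14 and 1 to 2 after 3 days. The controls gave 4 to 9 and 5 to 11 between cell types at 1 and 3 days, and 8 to 15 and 9 to 12 between times. Differences of responses gave 2 to 5, 0 to 4 and 0 to 0 at 1 day and 8 to 10, 3 to 6 and 10 to 12 at 3 days with HGF, Ito cells and CD146 cells, and the 2 added comparisons 12 to 14 and 8 to 9. Signals near the negative controls, as of 7 members in all groups, limit what a difference can show.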
